A study of Homo sapiens with 8 samples.

Results

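The promoters of SSFA2, TRIM4 and NUDT4 were followed in ATAC-seq peak lists of 2 lines of B-lineage acute lymphoblastic leukaemia, each with a clone edited at SETD2 and a control. ATAC-seq marks open chromatin by the DNA that the Tn5 transposase can cut and tag. The 3 genes were chosen from the calls of these same libraries, because a strong promoter peak was present in one arm of 697 and absent from the other, and so their calls in 697 are given as a description with no test. The members were all peaks that overlapped a window around each gene in hg19, chromosome 2 from 182.74 to 182.80 Mb for SSFA2, chromosome 7 from 99.48 to 99.53 Mb for TRIM4 and chromosome 12 from 93.76 to 93.80 Mb for NUDT4. They comprised 24 of the 532743 peaks of the 8 lists, and merged into 5 of 133028 regions. Gene starts were taken near 182.7566, 99.517 and 93.7717 Mb, so positions relative to a start are known to about 100 bp for SSFA2 and NUDT4 and to about 1000 bp for TRIM4.

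The SETD2 heterozygous knockout clone BM_B of 697 gave 2 libraries, and 697 cells with an empty guide vector gave 2. The SETD2 heterozygous knockout clone BA of KOPN-8 gave 2 libraries, and KOPN-8 cells with an empty guide vector gave 2. SETD2 encodes an enzyme that methylates histone H3 in the bodies of transcribed genes. Each knockout group is 1 clone set against cells with the empty vector, which the labels call neither a clone nor a population. Differences of the clone and effects of the edit therefore cannot be told apart. Replicates are labelled as biological, with no account of separate cultures, and their spread may hold a technical part. The edit itself and the B cell identity of the lines were not checked at marker loci, because no hg19 annotation was used.

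As background, most promoters rich in CpG dinucleotides lie in open chromatin in many cell types, and a promoter of this kind can be closed in a line or a clone when nucleosomes and DNA methylation occupy it. SSFA2, which RefSeq now calls ITPRID2, encodes a protein that binds inositol trisphosphate receptors and links them to actin. TRIM4 encodes a RING-type ubiquitin ligase known for modifying the viral RNA sensor RIG-I. NUDT4 encodes a Nudix hydrolase that removes phosphate from diphosphoinositol polyphosphates. The 3 genes lie on different chromosomes and are grouped by their calls, not by a shared pathway.

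The RefSeq promoter windows of SSFA2 and NUDT4, from 250 bases before to 50 bases after the gene start, are shown so that their base composition can be read beside the calls. The windows come from GRCh38.p14 on the plus strand, chr2:181891480-181891779 for SSFA2 and chr12:93377675-93377974 for the first NUDT4 entry, and were not placed on hg19. Capitals mark each GGGCGG motif, on either strand.
SSFA2: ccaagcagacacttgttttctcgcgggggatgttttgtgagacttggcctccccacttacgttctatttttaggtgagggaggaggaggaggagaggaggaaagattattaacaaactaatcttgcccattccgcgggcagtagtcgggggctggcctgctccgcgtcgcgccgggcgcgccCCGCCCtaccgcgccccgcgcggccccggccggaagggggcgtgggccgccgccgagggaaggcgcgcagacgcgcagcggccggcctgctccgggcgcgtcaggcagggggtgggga
NUDT4: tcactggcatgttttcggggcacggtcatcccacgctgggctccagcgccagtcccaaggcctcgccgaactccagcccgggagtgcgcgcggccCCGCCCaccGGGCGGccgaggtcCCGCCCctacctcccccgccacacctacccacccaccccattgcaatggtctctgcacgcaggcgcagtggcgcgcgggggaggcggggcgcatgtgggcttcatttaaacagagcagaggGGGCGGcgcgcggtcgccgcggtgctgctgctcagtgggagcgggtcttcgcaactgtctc

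The SSFA2 window held 34 CpG dinucleotides, 68.0% G+C and an observed to expected CpG ratio of 0.997. The NUDT4 window held 32 CpG dinucleotides, 71.3% G+C and a ratio of 0.841, and the second NUDT4 entry held 25 CpG dinucleotides, 68.3% and 0.72. Over all 35116 promoter windows of the RefSeq table the medians were 14 CpG dinucleotides, 58.7% and 0.579, and 84.4% of the windows held fewer CpG dinucleotides than SSFA2, 81.1% fewer than the first NUDT4 window and 68.0% fewer than the second. Of 8 short motifs searched on both strands, GGGCGG, the GC box, matched once in SSFA2 and at 4 places in the first NUDT4 window, and 45.0% of all windows held it. The motif CCAAT, held by 34.6% of all windows, matched neither promoter window. Nor did TATAAA, held by 11.5%, CACGTG, held by 7.26%, or the motif CCGGAAGT, held by 4.14%. The other motifs without a match were GCGCATGC, in 3.05% of windows, then ATGGCGGC, in 3.0%, and finally TGACGTCA, in 1.85%. The last 41 bases of the NUDT4 window, positions 260 to 300, also stand in the window of NUDT4B on chromosome 1, a near-identical copy of the gene. The placement of reads that fit both copies is not given in the sources used.

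The first comparison set the 697 clone against its controls. A region was called gained when both clone libraries had a peak there and neither control did, and lost in the opposite case. The SSFA2 and TRIM4 promoters were gained in the clone and the NUDT4 promoter was lost. These were 2 gained and 1 lost of the 6 regions that the 697 lists form in the 3 windows, beside 4.33% gained and 1.83% lost of all 96698 regions of the line. The members were chosen for these calls, so nothing is read from the shares. Each peak carries 1 value from the authors, read here as a fold over local background. It is given with its percentile, the share of peaks in the same list with a lower value.

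At SSFA2 the promoter peaks of the 697 clone had folds of 9.98 and 11.4, at percentiles 80.8 and 86.0, against no peak in control 1 and a fold of 2.8 at percentile 1.7 in control 2. The clone peaks ran from 182756270 to 182756806 and from 182756255 to 182756902 on chromosome 2, 537 and 648 bp wide. The control 2 peak was another interval, from 182756953 to 182757245, which began 50 bp past the end of the peak in clone 2 and shared no base with either clone peak. Around the SSFA2 start both clone libraries thus had a strong peak and neither control had one, while further into the gene control 2 alone had a weak one.

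At TRIM4 the 697 clone had folds of 9.12 and 9.8, at percentiles 76.1 and 79.2, and neither 697 control had any peak in the 50 kb window. The clone peaks were 338 and 320 bp wide, from 99517078 to 99517415 and from 99517099 to 99517418 on chromosome 7, and shared 317 bp. Both libraries of the clone carried the peak at nearly the same place, and the arms did not overlap in calls.

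At NUDT4 neither library of the 697 clone had a peak in the 40 kb window, against folds of 11.5 and 12.5 at percentiles 88.4 and 91.7 in controls 1 and 2. Both control peaks began at 93771264 on chromosome 12 and ended at 93771872 and 93771832, so they were 609 and 569 bp wide and held the gene start. The direction was thus opposite to that at SSFA2 and TRIM4. A promoter with no called peak may still hold cuts below the caller's threshold, and read depth is unknown. In bulk libraries, fewer cells with an open promoter and less opening in every cell cannot be told apart.

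By the smaller percentile of the 2 lists that call them, SSFA2 was 5th and TRIM4 8th of 4186 gained regions, whose median was 20.6. NUDT4 was 12th of 1772 lost regions, whose median was 16.4, and 1st of the 1669 outside chromosome Y. These ranks, and those within the neighbourhood that follow, rest on the values that chose the members. Within the gene windows and the 200 kb on both sides, the SSFA2 peak was 2nd of 12 and 2nd of 18 peaks in the lists of the clone, and the TRIM4 peak 4th of 13 and 6th of 14. The NUDT4 peak was 2nd of 24 and 3rd of 20 peaks in the control lists.

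**Figure D1:**
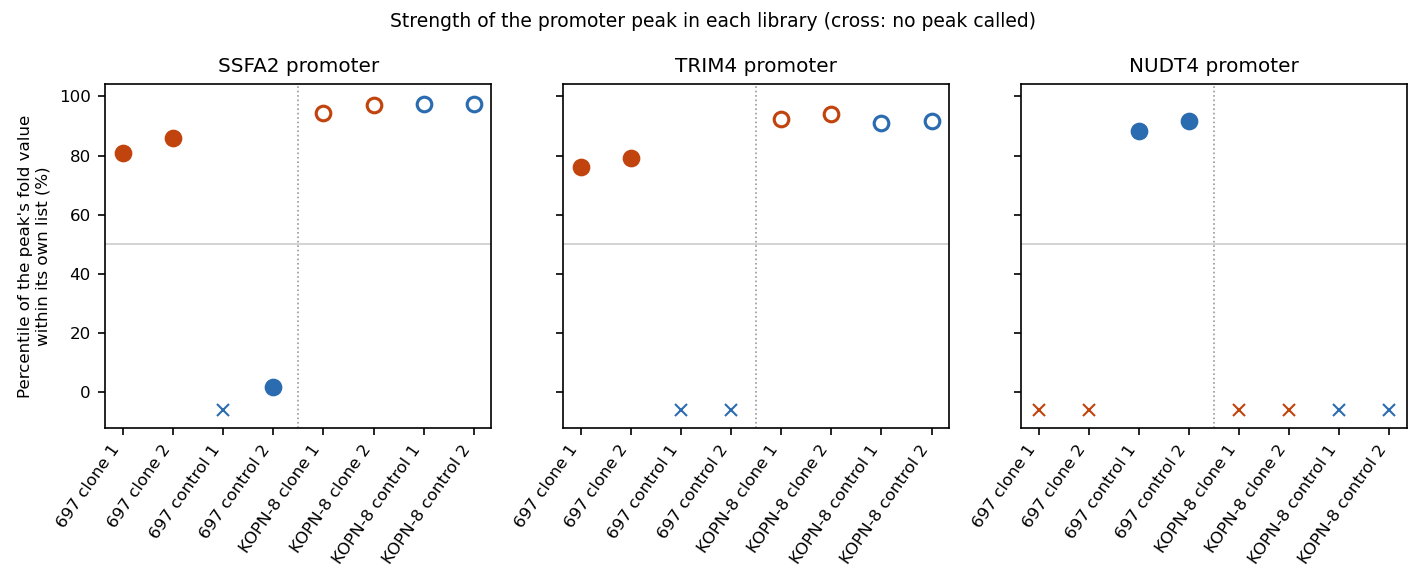
Percentile of the promoter peak's fold value within its own list, by library, for the 3 genes. Points are single libraries, filled for 697 and empty for KOPN-8, orange for clones and blue for controls; a cross stands for no called peak, and SSFA2 in 697 control 2 is the separate weak peak at percentile 1.7.

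KOPN-8 was not used to choose the genes. Its clone and its controls had the same calls in the gene windows, with the SSFA2 and TRIM4 promoters called in all 4 libraries and the NUDT4 promoter in none. Of the 3 regions that the KOPN-8 lists form in the windows, 0 were gained and 0 lost, beside 3.61% gained and 3.81% lost of all 91514 regions of the line. The number of peaks in each window was the same in all 4 libraries, at 2 for SSFA2, 1 for TRIM4 and 0 for NUDT4. An exact permutation test of libraries, two-sided with n = 2 per group, gave p = 1.0 in each window, where the smallest p possible is 0.333. This test cannot pass 0.05 with these numbers, so it does not show that the arms were alike.

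The SSFA2 promoter had folds of 14.2 and 15.7 in the KOPN-8 clone, at percentiles 94.3 and 97.0, against 15.8 and 15.7 in the KOPN-8 controls, both at percentile 97.5. It was the strongest peak within 200 kb in each of the 4 lists. At TRIM4 the KOPN-8 clone had folds of 13.4 and 14.0, at percentiles 92.4 and 94.2, against 12.3 and 12.7 in the KOPN-8 controls, at percentiles 91.0 and 91.7. It was the 2nd strongest of its neighbourhood in both clone lists and in control 1, and the strongest in control 2. The 697 clone had thus gained a peak at promoters that carried one in both arms of KOPN-8, and the percentiles in the 697 clone lay below every KOPN-8 value, although percentiles of different lists do not measure a change.

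The peaks also differed in extent between the lines. SSFA2 peaks were 537 and 648 bp wide in the 697 clone, against 1042 and 1071 bp in the KOPN-8 clone and 1018 and 1023 bp in the KOPN-8 controls. On the upstream side the peaks of both lines began within 45 bp of each other, while those of the 697 clone ended 206 and 302 bp into the gene and those of KOPN-8 between 677 and 710 bp into it. The weak peak of 697 control 2 lay within the stretch that KOPN-8 peaks covered and 697 clone peaks did not.

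TRIM4 peaks were 338 and 320 bp wide in the 697 clone, against 875 and 886 bp in the KOPN-8 clone and 755 and 824 bp in the KOPN-8 controls. TRIM4 is transcribed towards lower coordinates. Its 697 clone peaks ended upstream at 99517415 and 99517418, close to the KOPN-8 ends between 99517395 and 99517499. They began on the gene side at 99517078 and 99517099, at least 437 bp short of each KOPN-8 peak, which began between 99516592 and 99516641. At both gained promoters the 697 clone peaks thus stopped short of the KOPN-8 peaks on the gene side. In KOPN-8 the TRIM4 peaks of the clone were wider than those of the controls, with means 880 ± 7.78 and 790 ± 48.8 bp (SD, n = 2 each), and so were the SSFA2 peaks, with 1056 ± 20.5 and 1020 ± 3.54 bp. The arms did not overlap for either width, but an exact permutation test of 2 libraries against 2 cannot give a p below 0.333. The share of all KOPN-8 regions whose widths separate the arms was not computed, so nothing is read from these widths. Widths follow the caller and the depth as well as the chromatin, and their part was not tested.

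**Figure D2:**
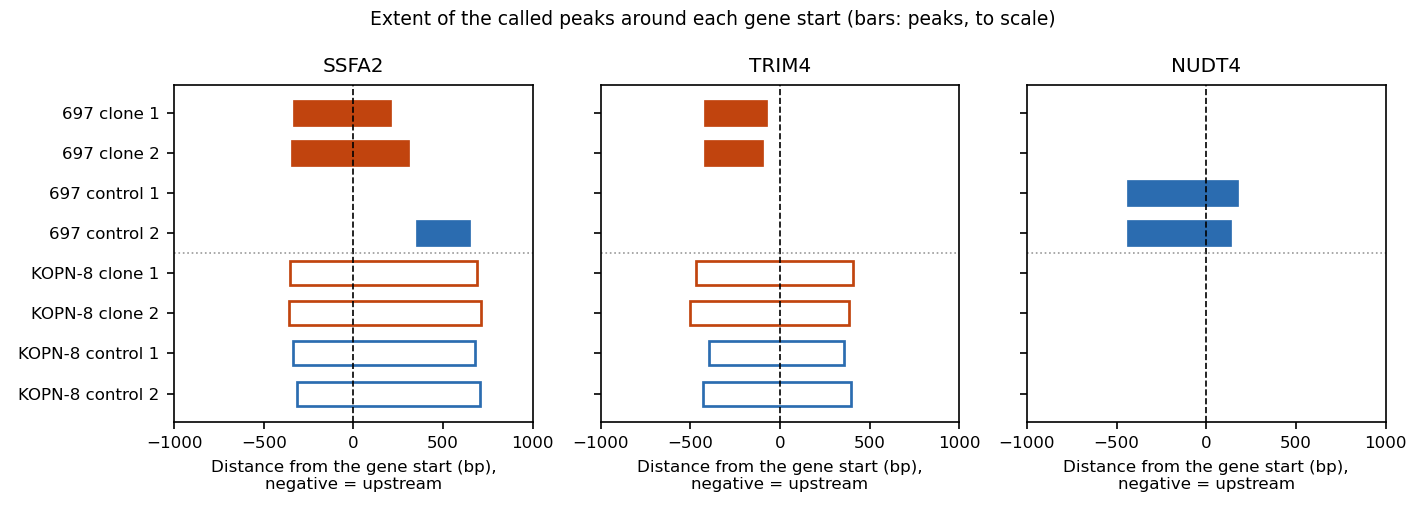
Extent of every called peak within 1000 bp of each gene start, one row per library, with distance in bp along the direction of transcription and the start at 0. Bars are peaks, filled for 697 and empty for KOPN-8, orange for clones and blue for controls; in the 697 clone the SSFA2 and TRIM4 bars stop short of the KOPN-8 bars on the gene side, and NUDT4 has bars only in the 697 controls.

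Across the whole series the direction of the 697 clone was set beside the KOPN-8 state. Of the 4186 regions gained in the 697 clone, 968 (23.1%) were called in all 4 KOPN-8 libraries, as TRIM4 and SSFA2 were, against 36.9% of all 697 regions. These 968 are 1.00% of the regions of 697. Of the 1772 lost regions, 1231 (69.5%) were called in no KOPN-8 library, as NUDT4 was, against 44.3% of all 697 regions. The last group, which includes regions on chromosome Y, is 1.27% of the regions of 697. The members' states in KOPN-8 are therefore shared by many other regions that were changed in the 697 clone.

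Over regions merged from all 8 lists, 923 (0.694%) had the same call in each library as TRIM4, and TRIM4 was 2nd among them by its smallest percentile. The strongest of the others were on chromosome 20 from 41160112 to 41160790, at percentile 87.7, and on chromosome 19 from 23982031 to 23982612, at 74.3, and from 24006691 to 24007221, at 74.1. NUDT4 shared its pattern with a total of 1231 regions (0.925%) and was 12th. The first of these were on chromosome Y, starting at 16945987, 6953646 and 15591745, with smallest percentiles of 98.1, 96.6 and 95.5. Whether calls on chromosome Y changed as a whole was not tested, so these need not be cases like NUDT4. In this merging the weak peak of 697 control 2 joins the SSFA2 promoter region, so SSFA2 was called in 7 of 8 libraries and ranked only 1852nd of 1890 regions (1.42%) with that pattern. The strongest of those were on chromosome 19 from 19248928 to 19249532, at 77.8, chromosome 17 from 27475718 to 27476258, at 76.1, and chromosome 19 from 19843264 to 19844209, at 70.1. When only peaks in the strongest 50% of each list counted as calls, SSFA2 and TRIM4 had one and the same pattern, shared by 470 regions (0.353%), among which they ranked 6th and 10th. The ranks of TRIM4 and NUDT4, and that of SSFA2 under this last rule, rest on the 697 values that chose the members.

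Away from the promoters the gene windows held little. SSFA2 had a region in the gene body, from 182768823 to 182769101, that was called in all 8 libraries and lay 12.2 kb from the start. Its percentiles were 57.1 and 60.2 in the 697 clone, against 33.8 and 65.0 in the 697 controls. In KOPN-8 they were 65.7 and 56.1 in the clone, against 57.1 and 40.2 in the controls. The arms overlapped in both lines. In both libraries of the 697 clone the SSFA2 promoter peak was stronger than the gene body peak of the same list. Neither 697 control had a peak around the SSFA2 start, so the controls held no promoter peak to compare. SSFA2 was chosen for a promoter peak strong in the clone and absent from the controls, so nothing is read from this order. An upstream peak from 182741512 to 182741742 was called in 697 clone 2 alone. No gene body peak was called in the TRIM4 or NUDT4 window in any library.

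The neighbourhood, within 200 kb of the windows, was examined to see whether the switch extended beyond the promoters. In the gene order of RefSeq, SSFA2 lies between NEUROD1, a transcription factor of neurons and endocrine cells, and PPP1R1C, an inhibitor of protein phosphatase. TRIM4 lies between the olfactory receptor gene OR2AE1 and GJC3, which encodes a gap junction protein. NUDT4 lies between EEA1, which encodes an early endosome tether, and UBE2N, which encodes a ubiquitin-conjugating enzyme. No hg19 annotation was used, so neighbouring peaks are given by position. In 697 the 3 neighbourhoods held 68 regions. All 4 libraries called 34 of them, beside 44.1% of all regions of the line. Of the 68, 6 (8.82%) were gained and 3 (4.41%) lost, beside 4.33% and 1.83% of all.

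Around SSFA2, where the promoter was gained in the 697 clone, 0 of 23 neighbouring regions were gained and 3 (13.0%) were lost. Of all regions of 697, 4.33% were gained and 1.83% lost. The lost regions were weak. The region from 182670543 to 182671010, 85.6 kb from the start, had percentiles of 8.15 and 14.0 in the controls. Those from 182972306 to 182972557 and from 182996681 to 182996940 did not exceed 7.13. The lists held 10 and 15 neighbouring peaks in the clone, against 15 and 16 in the controls, so the arms met at 15. The nearest region on the other side that all 8 libraries called, from 182655403 to 182656508, had percentiles of 83.7 and 81.8 in the 697 clone, against 87.2 and 92.8 in the 697 controls. The share of all 697 regions whose percentiles separate the arms was not computed. Nothing is therefore read from this separation, nor from those at the like regions near TRIM4 and NUDT4 below.

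Around TRIM4, 1 of 14 neighbouring regions was gained in the 697 clone and 0 were lost, and 10 (71.4%) were called in all 4 libraries. Of all regions of 697, 4.33% were gained, 1.83% lost and 44.1% called in all 4 libraries. The shares around TRIM4 were not tested. The gained region, from 99699454 to 99699764, had percentiles between 4.15 and 28.3 and was called in all 4 KOPN-8 libraries, as the TRIM4 promoter was. The lists held 12 and 13 neighbouring peaks in the clone, against 10 and 13 in the controls. The next region upstream that all 8 libraries called, from 99612992 to 99613692 and 96.0 kb from the start, was strong in each of them. Its percentiles were 97.0 and 96.4 in the 697 clone, against 88.0 and 88.2 in the 697 controls, and nothing is read from this separation.

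Around NUDT4, where the promoter was lost in the 697 clone, 5 of 31 neighbouring regions (16.1%) were gained and 0 were lost, beside 4.33% and 1.83% of all regions of 697. The lists held 30 and 29 neighbouring peaks in the clone, against 23 and 19 in the controls, and the arms did not overlap. Per 10000 peaks of the list these were 4.76 and 3.79 in the clone, against 4.02 and 2.71 in the controls, and here the arms overlapped. The gained regions began at 93613681, 93667878, 93827942, 93967182 and 93979008, between 56.2 and 207 kb from the start, with percentiles between 1.34 and 54.4. The nearest region called in all 8 libraries, from 93757595 to 93758340 and 13.4 kb from the start, had percentiles of 70.3 and 75.8 in the 697 clone, against 54.7 and 60.0 in the 697 controls. Here too the share of all 697 regions that separate the arms was not computed, so nothing is read from these percentiles. Over the 3 neighbourhoods the shares gained and lost, 8.82% and 4.41%, were above those of all regions of 697. They rest on only 6 and 3 regions and were not tested, so they say little about these loci.

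**Figure D3:**
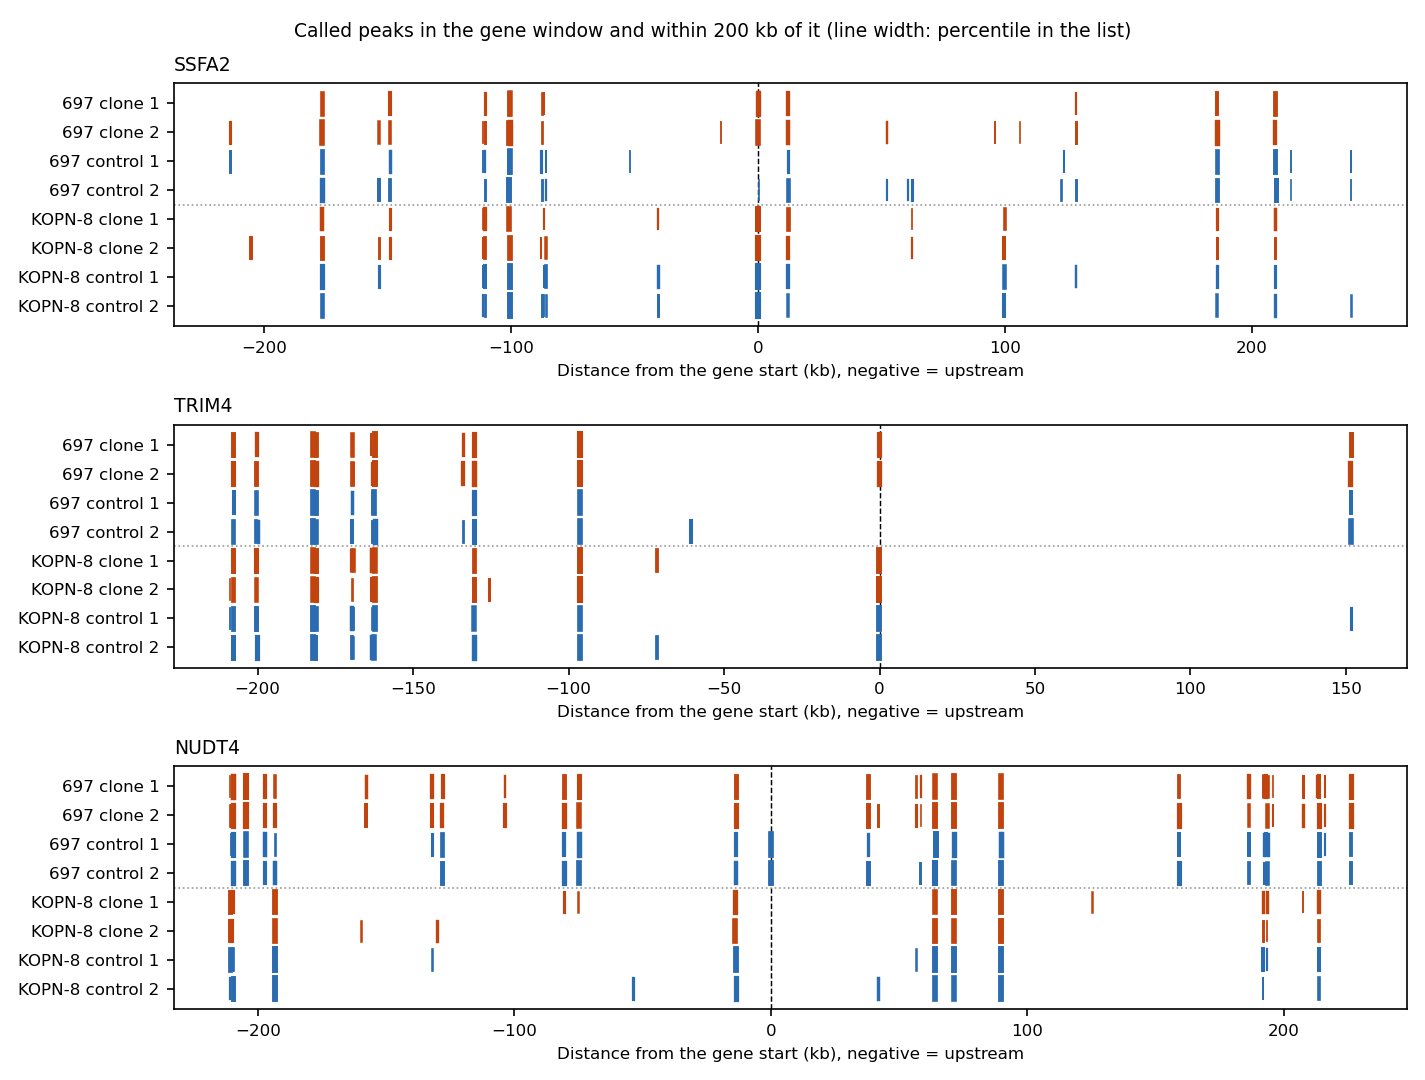
Called peaks in each gene window and within 200 kb of it, one row per library, with distance from the gene start in kb along the direction of transcription. Each line is a peak, thicker at a higher percentile, orange for clones and blue for controls; at 0 kb the SSFA2 and TRIM4 promoters have thick lines in the 697 clone and in KOPN-8, and NUDT4 only in the 697 controls.

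In KOPN-8 the neighbourhoods held 53 regions, of which 2 (3.77%) were gained and 0 lost in the clone, beside 3.61% and 3.81% of all. Both gained regions lay near SSFA2, from 182607610 to 182607885, at percentiles of 31.5 and 31.8, and from 182818990 to 182819279, at 1.92 and 12.4. The first of them was called in all 4 libraries of 697. Neighbouring peaks numbered 11 and 14 in the KOPN-8 clone against 13 and 13 in the controls at SSFA2, and 12 and 11 against 12 and 12 at TRIM4. At NUDT4 they numbered 15 and 12 in the clone against 12 and 11 in the controls. Exact permutation tests of libraries, two-sided with n = 2 per group, gave p = 1.0 at SSFA2 and TRIM4 and p = 0.667 at NUDT4, and after Benjamini-Hochberg adjustment over the 6 tests each was 1.0. The mean difference at NUDT4 was 2.0 peaks, with 13.5 ± 2.12 in the clone and 11.5 ± 0.707 in the controls (SD, n = 2 each).

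**Figure D4:**
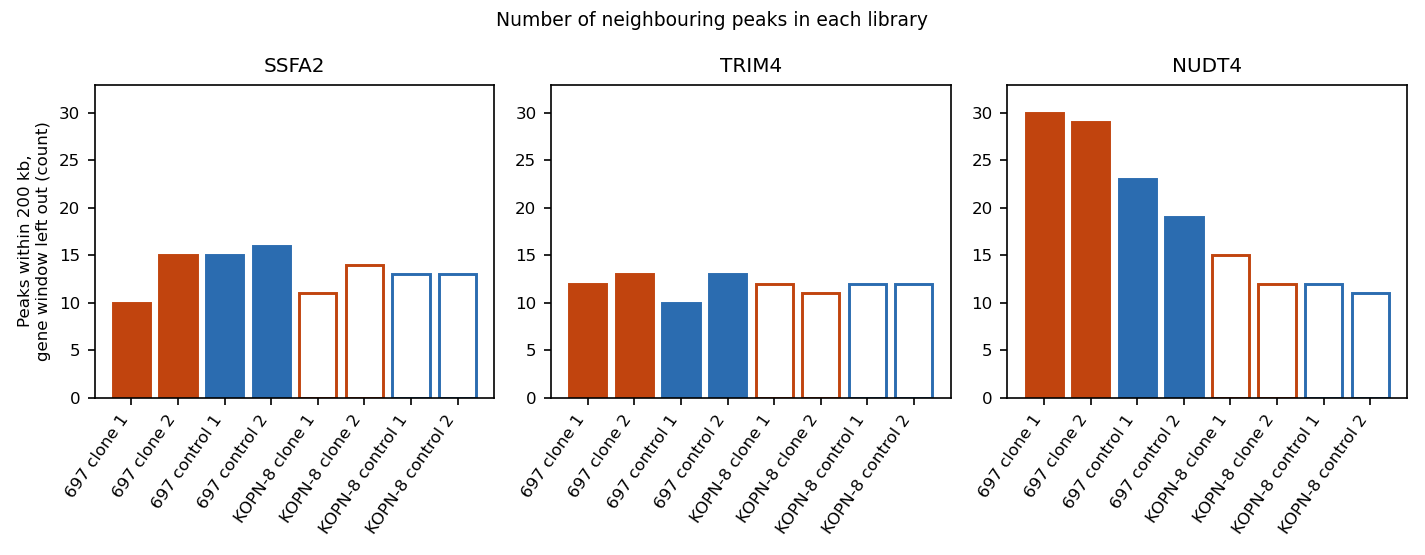
Number of called peaks within 200 kb of each gene window, the window left out, by library. Bars are single libraries, filled for 697 and empty for KOPN-8, orange for clones and blue for controls. Around NUDT4 the 697 clone holds 30 and 29 peaks, against 23 and 19 in the 697 controls. Per 10000 peaks of the list these are 4.76 and 3.79, against 4.02 and 2.71, and the arms overlap. Around TRIM4 all libraries lie between 10 and 13 peaks.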

How the data were processed

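The 8 ATAC-seq libraries were aligned to hg19 with Bowtie2 and MACS2 called the peaks, per the submitters' processing notes. Versions, settings, duplicate removal and any cut-site shift are not stated in the labels or files. The deposited lists hold peaks called per library, between 57154 and 76495 of them, each with 1 value, read as a fold, a linear ratio of pileup to local background. Values rank peaks within a list, and those of different lists are set side by side as description only. Read depth is unknown.

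Peaks of the 4 lists of a line were merged where they shared at least 1 bp, with Python 3.11.15 and pandas 2.3.3, and the code was tested on simulated lists. The promoter region was the merged region holding the gene start or the nearest within 1 kb. Starts are 1-based. Every region of the windows was described, neighbours within 200 kb were named when gained or lost, and the 3 strongest regions of each promoter's call pattern were named. The members, motifs and rules were chosen with earlier results of these data known. RefSeq tables for GRCh38.p14 gave names, gene order and promoter sequences. All 3 genes matched by symbol or synonym, and 2 had a promoter sequence. Alternatives were the strongest 50% of each list, lists of equal length, calls covering 50% of a region, regions merged from all 8 lists, neighbours within 100 kb, and each library left out.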

Additional observations from a re-analysis of the deposited data

How the results depend on the processing

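The calls of the TRIM4 and NUDT4 promoters in 697 held under all 4 settings that keep every library. That of SSFA2 held with the strongest 50% of each list, with lists of equal length and with calls covering 50% of a region. The members were chosen for strong peaks in 1 arm of 697, and both the strongest 50% and equal lengths only remove weak peaks. The calls therefore had to hold under both, which lends them no weight. Under the other settings an arm with no peak in the TRIM4 or NUDT4 window could gain no call. Those settings therefore add little weight to the TRIM4 and NUDT4 calls. With regions merged from all 8 lists, the weak peak of 697 control 2 joined the SSFA2 promoter region, so the clone exceeded the controls by 1 library in place of 2, and the windows held 1 gained region in place of 2. With 1 library left out, the clone exceeded the controls by 1 to 2 libraries at SSFA2 and TRIM4 and differed by -2 to -1 at NUDT4. Gained regions in the windows then numbered 2 to 3 and lost ones 1 to 2 in 697, and 0 of either kind in KOPN-8.

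Counts around the genes were less stable. With the strongest 50% of each list, gained neighbours in 697 fell to 2 and lost ones to 0, and gained neighbours in KOPN-8 to 0. With lists of equal length, 57154 peaks in 697 and 63585 in KOPN-8, lost neighbours in 697 numbered 0 and gained ones in KOPN-8 1. Within 100 kb, 2 neighbours were gained and 1 lost in 697, and 1 was gained in KOPN-8. With 1 library left out, gained neighbours numbered 9 to 12 and lost ones 3 to 7 in 697, and 2 to 8 and 1 to 4 in KOPN-8. Over all regions the strongest 50% gave 1856 gained and 778 lost in 697 and 1824 gained and 1996 lost in KOPN-8. With 1 library left out they ranged from 5635 to 17411 gained and 2500 to 11056 lost in 697, and from 4994 to 10178 gained and 5671 to 12115 lost in KOPN-8. Fewer libraries loosen the rule by construction. The calls come from no test, so a replicate block was applied only to the KOPN-8 peak counts, after the data had been seen, by exact sign flips of the 2 differences within a replicate number, which cannot give a p below 0.5. With this pairing the clone exceeded the controls around NUDT4 by 2.0 peaks (exact p = 0.5) and differed by -0.5 around SSFA2 and TRIM4 (exact p = 1.0). With 1 KOPN-8 library left out these differences ranged from 0.5 to 3.5 around NUDT4, from -2.0 to 1.0 around SSFA2 and from -1.0 to 0.0 around TRIM4. Around SSFA2 the direction reversed, to 1.0, without clone 1. Read depth is unknown, so a missing call sets no upper limit on accessibility.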
